A study of Mus musculus with 4 samples.

Results

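The 10 genes described here encode subunits of the Polycomb repressive complexes. They were chosen by symbol from the table of 30282 genes, and all 10 were found and tested. The cells were V6.5 mouse embryonic stem (ES) cells of the degron line dRPB3-mAID-GFP, in which RPB3, a core subunit of RNA polymerase II encoded by Polr2c, carries a minimal auxin-inducible degron and GFP. All were grown with the inhibitors CHIR99021 (GSK3) and PD0325901 (MEK) and received doxycycline at 1 µg/ml for 12 h, which induces the F-box protein TIR1. The untreated group (2 libraries) received nothing further, and the IAA group (2 libraries) was then given the auxin IAA at 500 µM for 12 h, by the sample labels, although one protocol sentence speaks of 1 h. Both groups carry the degron, so an effect of IAA itself and one of RPB3 loss cannot be told apart, and the labels do not say whether the line is 1 clone or whether libraries came from separate cultures. The p-values therefore rest on library-to-library spread that may be technical.

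Polycomb proteins keep developmental genes silent. Polycomb repressive complex 2 (PRC2) holds EZH1 or EZH2, which methylate lysine 27 of histone H3, together with the core subunits EED and SUZ12 and with accessory proteins that guide it to chromatin. Polycomb repressive complex 1 (PRC1) is built on the ubiquitin ligases RING1 or RNF2, which modify histone H2A, paired with 1 of several PCGF proteins that define its form. In ES cells both complexes sit at the CpG-rich promoters of lineage genes.

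After IAA the mRNAs of Pcgf6 (-25.9%) and Ezh1 (-19.1%) fell, while Suz12, Ezh2, Jarid2, Mtf2, Rnf2 and Ring1 did not pass the test. A gene was called at a limma adjusted p under 0.05 (Benjamini-Hochberg over all 14928 genes tested). By this rule 4 of the 10 were lower, Pcgf6, Ezh1, Eed and Phf19, and none was higher. Over all genes tested 28.9% were lower and 11.1% higher. At an unadjusted limma p under 0.05 the number higher was still 0, and it was 0 with limma's voom on the recovered reads. The median log2 fold change of the 10 was -0.083, beside -0.11 over all genes tested. The IAA libraries lay entirely below the untreated ones for 8 of the 10 genes, against 45.6% of all genes tested, and entirely above them for 1, against 22.5%. With median-of-ratios factors, a scaling that places the median gene near no change, 3 members were lower (20.7% of all genes) and 1 was higher (20.0% of all genes). The authors' deposited table calls 1 of the 10 lower at an adjusted p under 0.05, beside 9.57% of the genes that have an adjusted p there, and 0 higher, beside 2.47%.

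**Figure D1:**
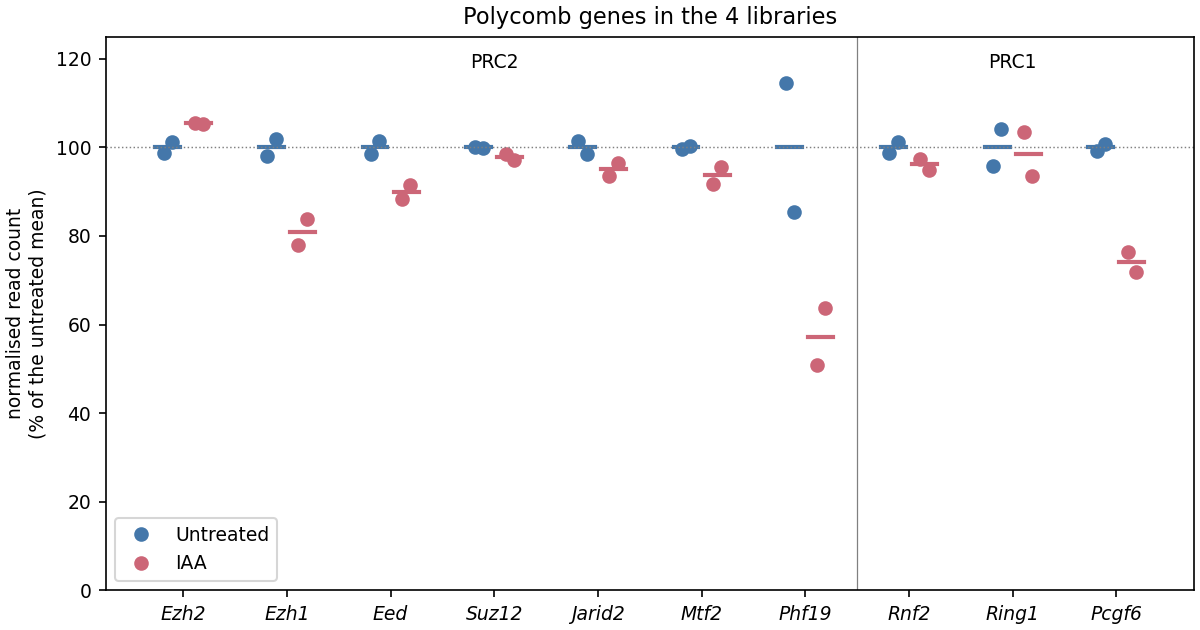
Normalised read count of each gene in each library, as a percentage of the mean of its 2 untreated libraries (y axis), with genes on the x axis. Points are libraries and short lines are group means. Pcgf6, Ezh1 and Phf19 lie lower in the IAA libraries, though the untreated Phf19 libraries are far apart. The Ring1 libraries of both groups overlap.

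The scale of the values bears on every small change here. The 4 libraries held 8724737 to 9194432 recovered reads, and values are normalised read counts at the scale the authors deposited. At that scale 4312 genes were lower and 1650 higher, which became 3083 and 2984 with median-of-ratios factors, and the median of all genes moved from -0.11 to -0.01. The ES cell markers were all present in every library (Nanog, for example, at 9641 to 12264), with 4 of 10 higher, led by Klf4 (0.52) and Nanog (0.33), and 4 lower, led by Dppa5a (-0.36). Of 10 feeder fibroblast markers 5 were among the rows, summing to 425 and 495 without IAA and 349 and 358 with it. Thy1 (-0.78) and Col1a1 (-0.76) were lower. Pdgfrb, the most abundant of the 5 with a mean of 235, did not pass (-0.097), and Col3a1 never passed 2. The authors' deposited table calls 0 of the 3 feeder markers to which it gives an adjusted p. Of 9 primitive endoderm markers, Lama1 (-0.86), Col4a1 (-0.40) and Sparc (-0.29) were lower and none was higher. Another 5 were tested and did not pass, in both directions, with log2 fold changes from -0.87 to 0.34. The sums of all 9 were 9619 and 9913 against 7685 and 7798, mostly Sparc, while Foxa2 never passed 1. Pdgfrb, Col3a1 and Foxa2 were named after their values were seen. The part of these markers in the results below was not tested. In such bulk samples fewer cells of a type and less RNA per cell cannot be told apart. Polr2c mRNA, which does not measure the degraded protein, was 2726 and 2885 without IAA and 3242 and 3158 with it (log2 fold change 0.19, limma adjusted p = 0.00116).

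Among the catalytic subunits of PRC2, Ezh1 was lower and Ezh2 was not. Ezh1 (ENSMUSG00000006920, chromosome 11, 101191115 to 101226463, GRCm38) encodes the methyltransferase that is usually more prominent in resting and differentiated cells. Its normalised reads were 717 and 746 before auxin and 571 and 613 after it. Both IAA libraries were below both untreated ones, and the mean fell by 19.1%, from 731.5 ± 20.5 to 592 ± 29.7 (SD, 2 libraries each). The log2 fold change was -0.31 with an SE of 0.07 (limma adjusted p = 0.000993). The call was also made with median-of-ratios factors (-0.21, limma adjusted p = 0.00815). In the authors' deposited table its adjusted p is 0.158.

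Ezh2 (ENSMUSG00000029687, chromosome 6, 47530139 to 47595341) encodes the main methyltransferase of proliferating cells. Its values were 3173 and 3259 without IAA and 3395 and 3385 with it. The IAA libraries were the higher ones without overlap. The difference did not pass the test at the deposited scale (log2 fold change 0.076, SE 0.04, 95% interval -0.0049 to 0.16, limma adjusted p = 0.128). It did pass with median-of-ratios factors (0.17, limma adjusted p = 9.24e-05). The authors' deposited table gives it an adjusted p of 0.599.

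The balance between these 2 enzymes does not depend on the scaling, because both are read in the same library. Per kilobase of annotated exon (the union of all exons of a gene), Ezh2 was 4.93 and 4.87 times as abundant as Ezh1 in the untreated libraries and 6.62 and 6.15 times with IAA. The share of Ezh1 in their sum went from 17.0% ± 0.128 to 13.5% ± 0.612 (SD, n = 2 per group). The multiples and the shares depend on the annotated exon lengths, which need not match the expressed mRNAs. The log2 ratio of Ezh2 to Ezh1 rose from 2.14 to 2.52 with no overlap between the groups. The ratio is given as a description, without a test; with 2 against 2 libraries the smallest two-sided p of an exact permutation test is 0.333.

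The sequence just upstream of the start site differs between these genes in the letters it holds. The members shown are 4: both methyltransferase genes, Pcgf6 as the clearest fall, and Suz12 as the most abundant member, which did not pass the test. Stretches are from RefSeq on GRCm38.p6, read 5′ to 3′ on the gene's strand, and contain no exon of the annotation used; that of Ezh2 lies inside its annotated gene, before the RefSeq start. Capitals mark CCAAT (or ATTGG on the other strand), the box bound by NF-Y, and GCGGGAA (or TTCCCGC), an E2F-type site.
Ezh1, chr11:101226464-101226713, minus strand: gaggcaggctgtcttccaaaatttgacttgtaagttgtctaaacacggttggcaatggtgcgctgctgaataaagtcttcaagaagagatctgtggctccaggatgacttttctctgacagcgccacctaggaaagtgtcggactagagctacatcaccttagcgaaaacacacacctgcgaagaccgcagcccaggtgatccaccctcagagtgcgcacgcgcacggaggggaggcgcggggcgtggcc
Ezh2, chr6:47595059-47595183, minus strand: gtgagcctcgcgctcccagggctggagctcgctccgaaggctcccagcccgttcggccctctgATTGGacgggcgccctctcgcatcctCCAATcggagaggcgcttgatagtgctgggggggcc
Pcgf6, chr19:47050907-47051156, minus strand: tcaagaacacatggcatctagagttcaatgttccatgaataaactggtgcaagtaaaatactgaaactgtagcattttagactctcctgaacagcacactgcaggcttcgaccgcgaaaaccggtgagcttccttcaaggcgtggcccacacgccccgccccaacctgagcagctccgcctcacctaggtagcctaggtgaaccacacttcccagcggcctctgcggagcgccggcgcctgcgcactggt
Suz12, chr11:79992856-79993105, plus strand: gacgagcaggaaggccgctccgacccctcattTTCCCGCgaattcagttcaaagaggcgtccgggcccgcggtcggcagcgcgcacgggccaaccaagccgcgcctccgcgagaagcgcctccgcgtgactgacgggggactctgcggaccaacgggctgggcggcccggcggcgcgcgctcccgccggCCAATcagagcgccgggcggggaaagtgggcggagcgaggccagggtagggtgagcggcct
The stretches of Ezh1 and Pcgf6 hold neither motif, whereas those of Ezh2 and Suz12 hold CCAAT boxes and that of Suz12 also TTCCCGC. These 4 do not stand for the other members, which are given next.

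All 10 members were found in the RefSeq promoter table, with 12 windows of 300 bases in all (250 before to 50 after the start), because Jarid2 and Mtf2 have 2 starts each. CCAAT on either strand was in 6 of the 12 windows (Eed, Ezh2, Suz12, both of Jarid2 and 1 of Mtf2), beside 37.4% of all 32851 windows. GCGGGAA was in 2 (Phf19, Suz12), beside 4.6%. The cAMP-response type site TGACGTC was also in 2 (Phf19, Ring1), beside 3.21%. TATAAA was in 1 (Jarid2), beside 13.6%, and CACGTG in none, beside 7.15%. Searches covered both strands, and none of these motifs contains another. The windows held 17 to 41 CpG dinucleotides, except 1 of Mtf2 with 2, where the median over all windows is 7. Of the called members, Eed and Phf19 thus held CCAAT or GCGGGAA, and Ezh1 and Pcgf6 held neither. Of those not called, Ezh2, Suz12 and Jarid2 held CCAAT, Mtf2 held it at 1 of its 2 starts, and Rnf2 and Ring1 held neither. A match is only a description of letters, and a link to the calls was not tested.

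Of the remaining core subunits, Eed was called lower and Suz12 did not pass the test. Eed (ENSMUSG00000030619, chromosome 7, 89954654 to 89980983) encodes the reader that binds methylated H3 and activates the enzyme. It had 1394 and 1433 without IAA and 1248 and 1294 with it. The groups did not overlap, and the mean fell by 10.1% (log2 fold change -0.15, SE 0.05, limma adjusted p = 0.0206). That lies close to the median of all genes, and the call was lost with median-of-ratios factors (-0.055, limma adjusted p = 0.408). In the authors' deposited table the adjusted p is 0.394. Of Eed exon sequence 6.82% overlaps an opposite-strand transcript, E230029C05Rik. Such overlaps also cover 6.93% of Mtf2 (Tmed5), 3.83% of Rnf2 (Trmt1l), 3.6% of Suz12 (Gm26563) and 2.61% of Ezh2 (Gm26625), and none of the other 5 members.

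Suz12 (ENSMUSG00000017548, chromosome 11, 79993106 to 80034123) encodes the scaffold of the complex. Its libraries read 3542 and 3529 without IAA and 3487 and 3439 with it. Both IAA libraries were lower, with a change in the mean of -2.05%. The test did not call it (log2 fold change -0.030, 95% interval -0.11 to 0.049, limma adjusted p = 0.565), and its sign turned with median-of-ratios factors (0.068). Suz12 was also the most abundant of the 10 per kilobase of exon.

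Of the 3 accessory PRC2 subunits among the members, Phf19 was called lower, and Jarid2 and Mtf2 did not pass the test. Jarid2 (chromosome 13, 44729474 to 44921643) encodes a DNA-binding partner that itself lacks demethylase activity. It had 2952 and 2863 without IAA and 2722 and 2805 with it, lower in both IAA libraries but not called (log2 fold change -0.073, 95% interval -0.16 to 0.012, limma adjusted p = 0.167). Mtf2 (chromosome 5, 108065674 to 108109004), a Polycomb-like protein that binds unmethylated CpG-rich DNA, had 2752 and 2770 against 2536 and 2641. It was lower without overlap and likewise not called (log2 fold change -0.093, 95% interval -0.18 to -0.0065, limma adjusted p = 0.0808). With median-of-ratios factors both turned to slightly above 0, Jarid2 at 0.025 and Mtf2 at 0.0048.

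Phf19 (ENSMUSG00000026873, chromosome 2, 34893757 to 34914026), another Polycomb-like gene, was by far the least expressed member. It had 63 and 47 without IAA and 28 and 35 with it. The groups did not overlap, though the untreated libraries lay far apart. The mean fell by 42.7% (55 ± 11.3 to 31.5 ± 4.95, SD, 2 libraries each). Its log2 fold change was -0.78 with an SE of 0.24 (95% interval -1.27 to -0.28, limma adjusted p = 0.0127). In voom fits that left out 1 library at a time it was called in 2 of 4, with the call lost without untreated replicate 1 (-0.60) and without IAA replicate 1 (-0.64). The authors' deposited table gives it an adjusted p of 0.376. The genes with the most similar course over the 4 libraries, among 9727 other genes with a mean of at least 100, were Shld2, AW554918 and Supt3 (Euclidean distance of centred log2 values 0.14 to 0.15). Their log2 fold changes were -0.74, -0.64 and -0.65, which lie near that of Phf19 because the genes were picked for this likeness. Within the Polycomb-like family, Mtf2 was 38.6 and 52.1 times as abundant as Phf19 per kilobase of exon without IAA and 80.1 and 66.7 times with it, with no overlap.

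**Figure D2:**
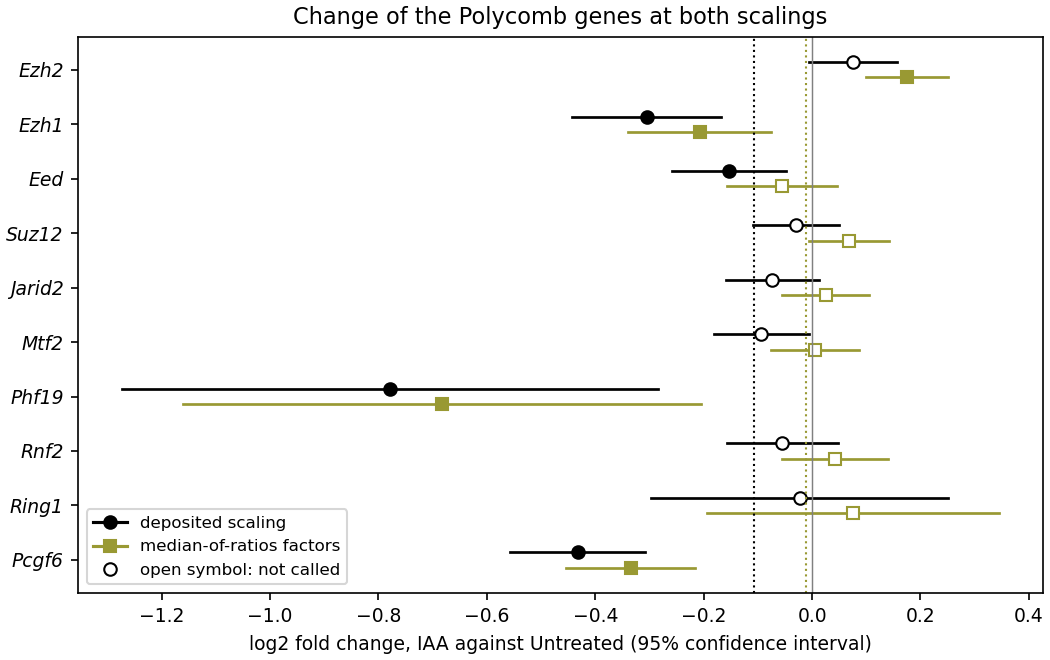
Log2 fold change of each gene (x axis) with its 95% confidence interval, at the deposited scaling (circles) and with median-of-ratios factors (squares). Filled symbols passed the test, and dotted lines mark the median of all genes tested at each scaling. Ezh1, Phf19 and Pcgf6 are filled at both, Eed only at the deposited scaling and Ezh2 only with median-of-ratios factors.

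Of the 3 members that belong to PRC1, Pcgf6 was called lower. Pcgf6 (ENSMUSG00000025050, chromosome 19, 47033617 to 47050906) encodes the PCGF protein of a variant PRC1 that, with MGA, L3MBTL2 and E2F6, is known for silencing germ cell genes in ES cells. It had 969 and 984 normalised reads without IAA and 745 and 702 with it. Replicates lay close together and the groups far apart. The mean fell by 25.9%, from 976.5 ± 10.6 to 723.5 ± 30.4 (SD, 2 libraries each). The log2 fold change was -0.43 with an SE of 0.06 (95% interval -0.56 to -0.31, limma adjusted p = 9.27e-06). Of all genes tested 17.7% had a lower log2 fold change. It was the single member that the authors' deposited table also calls (adjusted p 0.0108). With median-of-ratios factors the log2 fold change was -0.33 (limma adjusted p = 2.29e-06). It was called in 4 of 4 voom fits without 1 library, from -0.48 to -0.39.

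The ligase genes did not pass the test. Rnf2 (chromosome 1, 151458004 to 151500955), the main H2A ubiquitin ligase of ES cells, had 1455 and 1490 without IAA and 1435 and 1399 with it, lower in both IAA libraries without overlap. The log2 fold change was -0.055 (95% interval -0.16 to 0.047, limma adjusted p = 0.396). Ring1 (chromosome 17, 34020792 to 34024680), its paralogue, had 127 and 138 against 137 and 124, so the groups overlapped (-0.022, 95% interval -0.30 to 0.25, limma adjusted p = 0.913). The fit thus leaves room for a change of Ring1 in either direction within that interval. With median-of-ratios factors both turned to above 0, Rnf2 at 0.043 and Ring1 at 0.075. Rnf2 was 9.0 and 8.48 times as abundant as Ring1 per kilobase of exon without IAA and 8.23 and 8.87 times with it, ranges that overlap.

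Levels of the members were set side by side per kilobase of exon. That length is the union of all annotated exons and need not match the expressed mRNA. All levels and multiples per kilobase here therefore depend on the annotation, and the SDs cover only the spread between libraries. In the untreated libraries Suz12 was highest at 715 ± 1.86 normalised reads per kilobase (SD, n = 2), followed by Mtf2 (485 ± 2.23) and Ezh2 (482 ± 9.11), which could not be ordered because their libraries overlapped. Then came Eed (369 ± 7.20), Rnf2 (357 ± 6.0), Jarid2 (299 ± 6.48), Pcgf6 (194 ± 2.11), Ezh1 (98.3 ± 2.76), Ring1 (40.9 ± 2.40) and Phf19 (10.9 ± 2.25), each above the next in both libraries. With IAA the level of Ezh2 was 508 ± 1.06 and that of Mtf2 454 ± 13.0. The 4 called members were Eed in the upper part of this order and Pcgf6, Ezh1 and Phf19 in its lower part.

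More of the other genes of the Polycomb system were called higher than lower. Of 52 further PRC2, PRC1, PR-DUB and H3K27 demethylase genes tested, 12 were higher and 6 lower, beside 11.1% and 28.9% of all genes tested, with a median log2 fold change of 0.047. With median-of-ratios factors 21 were higher and 2 lower, beside 20.0% and 20.7% of all genes. The authors' deposited table calls 7 higher and 2 lower, beside 2.47% and 9.57% of its genes with an adjusted p. Among 8 other PRC2 subunits, 2 were higher and 1 lower. Epop (ENSMUSG00000043439, chromosome 11, 97627389 to 97629702), a single-exon gene whose protein links PRC2 to elongin, had 1934 and 2280 without IAA and 4042 and 3913 with it. That is a rise of 88.8% in the mean (log2 fold change 0.92, SE 0.06, limma adjusted p = 2.42e-10), and the authors' deposited table calls it too (adjusted p 1.47e-08). Lcor, whose long transcripts encode the PRC2-binding protein PALI1, went from 477 and 502 to 661 and 660 (0.43, limma adjusted p = 4.33e-05). Rbbp7, a histone-binding subunit shared with other complexes, was lower (-0.13) at the deposited scale and not called with median-of-ratios factors (-0.033).

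**Figure D3:**
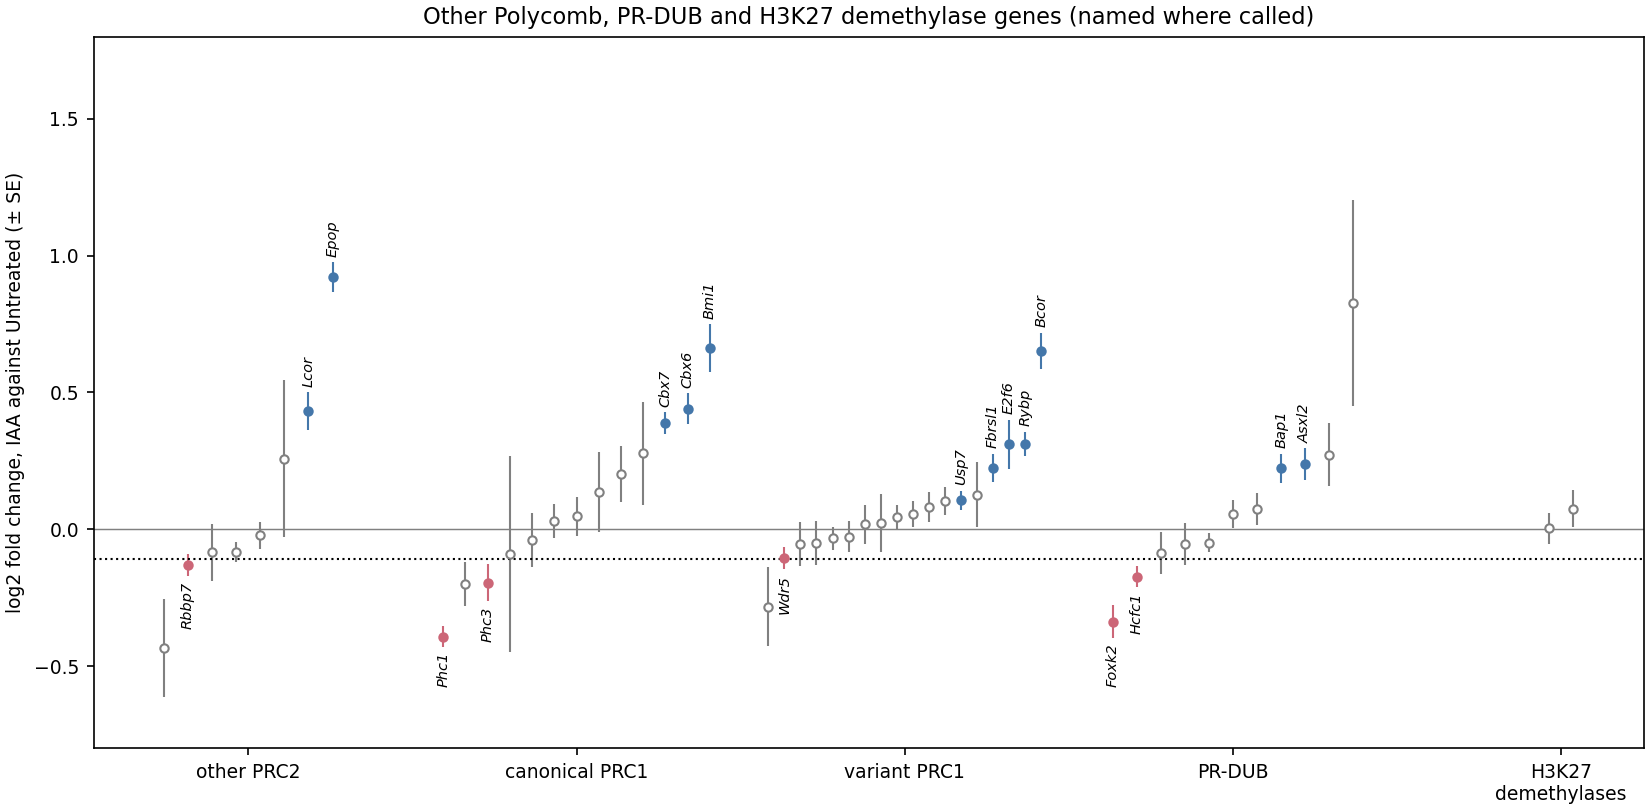
Log2 fold change with its standard error (y axis) for the 52 other Polycomb, PR-DUB and H3K27 demethylase genes, grouped by complex on the x axis. Filled points passed the test and are named, blue higher and red lower, and the dotted line is the median of all genes tested. Epop, Bmi1 and Bcor stand highest and Phc1 lowest among the called genes.

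Canonical PRC1, the form that reads methylated H3 through CBX proteins, changed in both directions. Of 13 tested 3 were higher and 2 lower (4 and 1 with median-of-ratios factors). Over all genes tested these shares were 11.1% and 28.9% (20.0% and 20.7%). Bmi1, the PCGF protein best known from blood and neural stem cells, went from 244 and 237 to 385 and 377 (0.66, SE 0.09, limma adjusted p = 5.58e-06). Cbx6 went from 935 and 1022 to 1346 and 1307 (0.44) and Cbx7, the main CBX protein of ES cells and named after its values were seen, from 2780 and 2810 to 3728 and 3588 (0.39). Phc1, a polymerising Polyhomeotic subunit, fell from 4832 and 4732 to 3601 and 3687 (-0.39, limma adjusted p = 9.38e-08). Phc3, named after its values were seen, was lower at the deposited scale alone (-0.19). Bmi1, Cbx6, Cbx7 and Phc1 are also called in the authors' deposited table, with adjusted p of 0.0140, 0.00273, 3.64e-05 and 4.53e-06.

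Variant PRC1 subunits, which need no H3 methylation for their binding, had 5 of 18 higher and 1 lower (9 and 0 with median-of-ratios factors). All genes tested had 11.1% higher and 28.9% lower (20.0% and 20.7%). Bcor, a partner of PCGF1 in the form recruited by KDM2B, went from 591 and 536 to 872 and 899 (0.65, SE 0.07, limma adjusted p = 2.18e-07). Rybp, which stimulates the ligase of variant complexes, went from 1802 and 1854 to 2287 and 2253 (0.31), and E2f6, a DNA-binding partner of PCGF6, from 301 and 359 to 405 and 411 (0.31). Mga (0.045) and L3mbtl2 (0.10), the other partners of PCGF6 named above, did not pass at the deposited scale. They did with median-of-ratios factors (0.14 and 0.20). Not every partner of PCGF6 is named here. Tfdp1 on the same list passed at neither scaling (-0.033 and 0.065), and Wdr5 did not with median-of-ratios factors (-0.0076). These and the further called genes Fbrsl1 (0.22), Usp7 (0.11) and Wdr5 (-0.11) were named after their values were seen. The authors' deposited table calls Bcor (adjusted p 0.000129) and Rybp (0.00857). It does not call E2f6 (0.321), Fbrsl1 (0.156), Usp7 (0.366) or Wdr5 (0.473).

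The makeup of the PCGF family, which is independent of the library scaling but not of the exon lengths used, differed between the groups. Of all PCGF reads per kilobase of exon, Pcgf6 held 28.3% and 27.5% without IAA and 22.2% and 20.4% with it. Bmi1 went the other way, from 9.03% and 8.39% to 14.5% and 13.8%. For both genes the groups did not overlap, but this held for every other gene of the family too. The share of Pcgf1 was lower with IAA, and those of Pcgf2, Pcgf3 and Pcgf5 were higher. Pcgf2 held the largest share in all 4 libraries, between 31.4% and 34.3%. Among CBX genes Cbx7 held 61.8% and 60.0% without IAA and 63.7% and 63.4% with it, and the share of Cbx2 went from 17.6% and 18.5% to 14.4% and 15.4%. The normalised reads of Cbx2 itself were 520 and 568 without IAA and 552 and 572 with it, and were not called (log2 fold change 0.048). Pcgf1, Pcgf2, Pcgf3, Pcgf5 and Cbx2 were named after their values were seen. These shares were not tested. They also depend on the annotated exon lengths. For Cbx6 the union of exons covers 10609 of the 10793 bases of the gene, although it has a transcript of 6 exons. The share of Cbx6 may thus be understated, and those of the other CBX genes overstated.

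**Figure D4:**
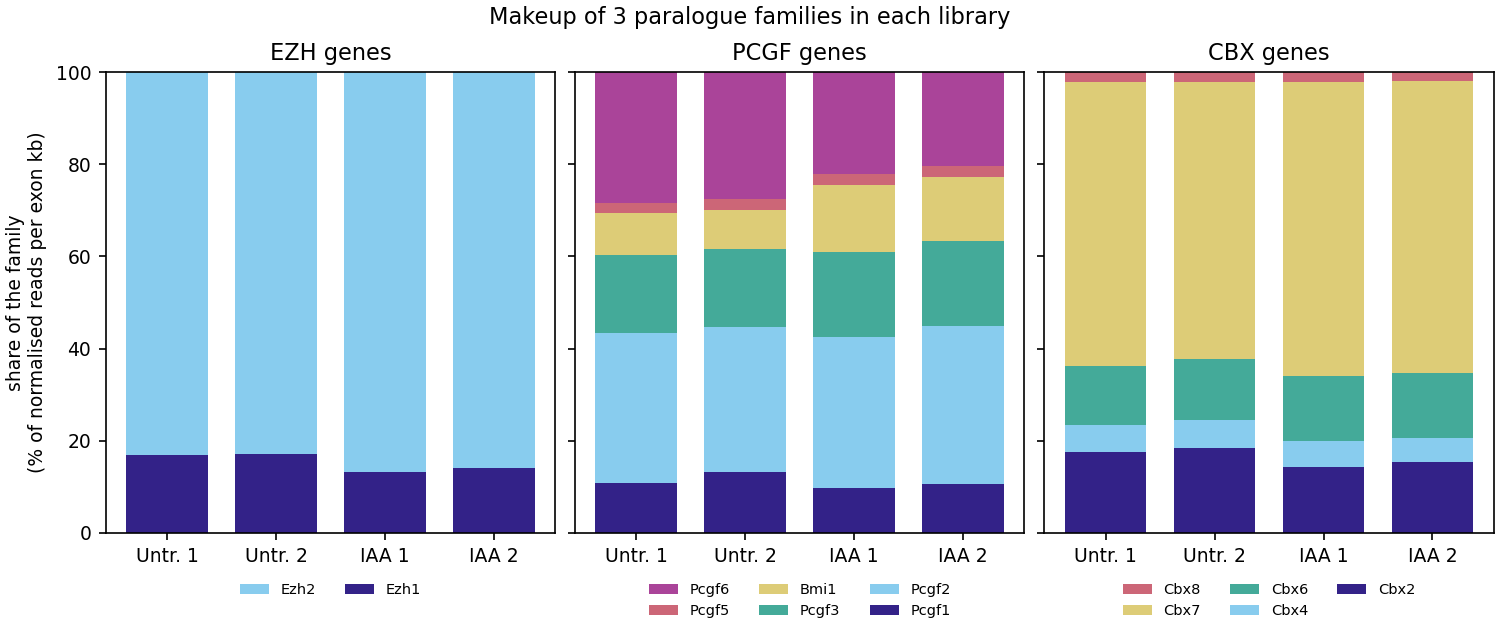
Share of each gene in the normalised reads per exon kilobase of its family (y axis, percent) in each of the 4 libraries, for EZH, PCGF and CBX genes. The Pcgf6 segment is smaller and the Bmi1 segment larger in both IAA libraries, and Ezh1 takes a smaller part of the EZH bars there.

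Genes that oppose Polycomb were mixed. PR-DUB, the BAP1 complex that removes ubiquitin from H2A, had 2 of 11 higher and 2 lower (5 and 1 with median-of-ratios factors). The shares over all genes tested were 11.1% and 28.9% (20.0% and 20.7%). Bap1 itself went from 1225 and 1307 to 1515 and 1441 (0.22), Asxl2, its activating partner, from 1043 and 946 to 1177 and 1168 (0.24), and Foxk2, a forkhead partner, from 1070 and 1189 to 910 and 874 (-0.34). Hcfc1 (-0.17), named after its values were seen, was lower at the deposited scale alone. The authors' deposited table calls Foxk2 (adjusted p 0.0491) but not Bap1 (0.173), Asxl2 (0.183) or Hcfc1 (0.0888). The H3K27 demethylase genes Kdm6a (0.076) and Kdm6b (0.0035) did not pass, and Kdm6a did with median-of-ratios factors (0.17, limma adjusted p = 0.0319).

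Of the known targets of the complexes, 2 developmental and 3 germ cell genes passed the test. Of 53 developmental regulators in the table that are known Polycomb targets in ES cells, 29 were expressed enough to be tested and none of the other 24 passed 14 normalised reads in any library. Of the 29, En2, a midbrain homeobox gene, was lower (340 and 371 to 253 and 234; -0.54, limma adjusted p = 9.48e-05) and Eomes was higher (176 and 186 to 228 and 215; 0.29, limma adjusted p = 0.0359), and 27 did not pass. Their summed counts were 2679 and 2922 without IAA and 2742 and 2670 with it. Of 20 germ cell genes known as targets of the PCGF6 form of PRC1, 1 was higher, 2 were lower and 17 did not pass. With median-of-ratios factors 5 were higher and 1 lower. Over all genes tested 11.1% were higher and 28.9% lower, and with median-of-ratios factors 20.0% and 20.7%. Taf7l, a testis form of a TFIID subunit on chromosome X, rose from 27 and 24 to 61 and 51 (1.10, SE 0.24, limma adjusted p = 0.000953). Sohlh2 went from 377 and 352 to 265 and 312 (-0.34) and Stag3, a meiotic cohesin gene, from 1019 and 915 to 846 and 884 (-0.16, not called with median-of-ratios factors). The median log2 fold change of the list was 0.017, beside -0.11 over all genes tested. Its summed counts were 3826 and 3825 without IAA and 3605 and 3808 with it. The authors' deposited table gives an adjusted p to 11 of the 53 developmental and 12 of the 20 germ cell targets, with 0 of them called, and gives none to Taf7l.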

How the data were processed

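Poly(A) RNA libraries of 4 samples were analysed, grouped and numbered by their titles. Per the submitters' processing notes, the tools were featureCounts, STAR, Bowtie2, cutadapt 1.18, DESeq2, deepTools and SAMtools, and the builds dm6 and mm10, with no roles given. Which annotation was counted, and with what strand setting, is not given in the sources used here. Each library's deposited values are scores: read counts divided by 1 factor per library (0.88 and 0.87 untreated, 0.98 and 0.95 IAA) and rounded. The deposited mean is a signal, their unrounded mean. From both, whole reads were recovered for 100% of genes (tolerance 0.001 on the mean). The labels' protocols describe growing Drosophila S2 cells but not their use, and what set the factors is not stated. From the authors come also log2 fold changes with standard errors and p-values, called the authors' deposited table here.

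Genes with a mean of at least 10 were tested with limma 3.58.1 (R 4.3.3) after taking log2(value + 1) (empirical Bayes trend, no replicate block). Log2 fold changes are on that scale and understate changes of low genes. The fit was also run on simulated data with far fewer changed genes and no shift of the median gene. That run does not show how often calls in these data are false. Intervals are 95% intervals from the same fit. Gene positions and exon lengths are from GENCODE M21 on GRCm38, also called mm10, in which 30214 of 30282 identifiers matched. Reads of overlapping genes may be shared or dropped, depending on the counting. The members and gene lists were chosen with earlier results of these data known. Named genes were all 10 members, Polr2c, the 3 called genes of largest change in each other list (or its 2 most abundant), and the 3 genes most like the called member of largest change. Others are said to be named after their values were seen. Alternatives were other scalings, filters, pseudocounts, thresholds, voom, the authors' own test, a replicate block and leaving out each library. Unrounded values and voom without 1 library were added after seeing the data.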

Additional observations from a re-analysis of the deposited data

How the results depend on the processing

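Pcgf6, Ezh1 and Eed had a negative and Ezh2 a positive log2 fold change in every setting run, though not always past the threshold. Phf19 was negative in all but the minimum mean of 100, where it was not tested. With median-of-ratios factors and with library totals, 2984 and 3058 genes were called higher in place of 1650, and 1 Polycomb gene, Ezh2, was called higher in each. The sign turned for Rnf2 (0.043 and 0.049), Mtf2 (0.0048 and 0.011), Suz12 (0.068 and 0.075), Jarid2 (0.025 and 0.031) and Ring1 (0.075 and 0.081). With no filter on low values 638 genes were lower and 179 higher, and 0 of the 10, with Pcgf6 just above the threshold. In the authors' deposited test 1100 were lower and 284 higher, and 1 of the 10 was lower. At an adjusted p under 0.01, 3060 genes were lower and 1037 higher, and 2 of the 10 were lower. Leaving out any 1 library gave 0 calls in all 4 limma fits on the rounded values, for all genes (range 0 to 0) and for the 10. In those fits Pcgf6 ranged from -0.48 to -0.39 and Ring1 from -0.094 to 0.049, with 0.037 without untreated replicate 2. The cause was not tested. Voom on recovered reads gave 3297 to 3999 lower and 1196 to 1452 higher without 1 library, and 2 to 4 of the 10 lower, with 2 without IAA replicate 1. There Ring1 ranged from -0.093 to 0.045 and was 0.035 without untreated replicate 2. Ezh1 was called in 4 of these 4 fits, Eed in 2 and Phf19 in 2. With the replicate number as a block, 4311 genes were lower and 1647 higher and 4 of the 10 lower. The labels do not say that equal numbers mark a shared culture or day, so the block was not used. Same-numbered deviations had a correlation of -0.0030 across genes. That value cannot show whether libraries were paired, because such deviations may be mostly counting noise.

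With 2 libraries per group and no statement that they were separate cultures, no call here speaks for the spread between cultures. Phf19 and Ring1 rest on low counts, and poly(A) RNA levels say nothing of protein or of chromatin.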
